A study of Mus musculus with 563 samples.

Results

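The report is about 10 genes whose reads were nearly absent from young haematopoietic stem cells (HSCs) and plentiful in old ones: Tmem215, Tdrd9, Zg16, Klrb1c, Matn4, Rbpjl, Sbspon, Chrm3, Plscr2 and Dnm3. They were picked from the top of the old against young contrast of these same cells, so their old and young levels are given as a description, with no test. They are 10 of 46041 nuclear gene entries in the count tables, and 10 of the 10721 genes that passed a level filter of 10 CPM (counts per 1000000 nuclear gene reads, scaled for library composition) with a read in 10% of cells. Single HSCs from mouse bone marrow carrying the Gfp-Lc3 transgene, a fluorescent reporter of the autophagy protein LC3, were taken at steady state, and each sorted cell gave its own Smart-seq2 library. The old cells are named LO, MID and HI in the labels, which do not define the words, and the young cells form 1 group with no such split. The counts came in 2 tables. After filtering, the first held 65 LO, 68 MID and 68 HI old cells and 63 young cells, and the second 71 LO, 66 MID and 61 HI old cells and 71 young cells. All groups share the genotype and tissue. The labels do not say which animal a cell came from, so a group stands for 1 sample and no test was possible. Intervals on levels take reads as independent counts, and intervals on shares take cells as independent draws. Reads of a gene often lay in few cells, so the intervals on levels are too narrow. No interval below covers the spread between animals.

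HSCs sit at the root of blood formation, and their number rises with age while their output shifts toward platelet and myeloid cells. A set of genes is known to be switched on in the aged compartment, among them the surface protein Selp and the adhesion protein Vwf. Several of the 10 genes described here are better known from elsewhere: Rbpjl and Zg16 from the exocrine pancreas, Tdrd9 from germ cells, and Klrb1c, the antigen NK1.1, from natural killer cells.

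The median kept cell held 257238 nuclear gene reads among LO cells, 254723 among MID cells and 340529 among HI cells, against 271443 among young cells. All 12 HSC markers passed the level filter, and their summed level lay between 3367 and 4220 CPM in the old groups and at 3837 and 4227 CPM in the young ones. The 71 young cells of the second table all had at least 20 Xist reads and none had 20 reads of Y-linked genes, whereas every other group had at least 57 cells with 20 or more Y-linked reads. In the second table old and young cells thus differed in sex-linked reads as well as in age. Levels are given for each table on that account, and shares of cells are pooled over the tables unless stated.

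The start sites of 7 of the 10 genes were matched in a promoter table from RefSeq (build GRCm38.p6, from 250 bases before to 50 bases after the start). Tmem215 and Matn4 had 2 entries each, and the first was used. The 4 promoters below belong to Tmem215 and Tdrd9, with the largest differences between old and young cells, and to Matn4 and Rbpjl, which lie on opposite strands of the same stretch of chromosome 2. Capitals mark matches to the motifs searched on both strands. For GATA factors these were AGATAA beside TGATAA, for RUNX factors TGTGGT, for ETS factors ACCGGAAG, for AP-1 the letters TGANTCA and for STAT factors TTCNNNGAA. For the E-box they were CAGCTG beside CATCTG, for RBPJ the letters TTCCCAC beside CGTGGGAA, for the TATA box TATAAA, and for the CRE element TGACGTCA.
Tmem215 (chr4:40471930-40472229, plus strand): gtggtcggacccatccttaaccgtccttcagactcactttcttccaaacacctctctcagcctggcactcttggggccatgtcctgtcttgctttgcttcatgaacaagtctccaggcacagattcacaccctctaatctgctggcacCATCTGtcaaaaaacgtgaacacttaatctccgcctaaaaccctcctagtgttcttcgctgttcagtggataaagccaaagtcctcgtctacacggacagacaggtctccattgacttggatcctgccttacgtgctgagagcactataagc
Tdrd9 (chr12:111971309-111971608, plus strand): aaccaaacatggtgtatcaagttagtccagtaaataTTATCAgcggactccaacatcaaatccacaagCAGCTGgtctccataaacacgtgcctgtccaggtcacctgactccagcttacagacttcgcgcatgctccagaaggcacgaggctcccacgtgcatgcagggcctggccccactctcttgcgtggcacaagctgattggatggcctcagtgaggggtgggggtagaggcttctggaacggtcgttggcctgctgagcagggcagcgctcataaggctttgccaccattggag
Matn4 (chr2:164405111-164405410, minus strand): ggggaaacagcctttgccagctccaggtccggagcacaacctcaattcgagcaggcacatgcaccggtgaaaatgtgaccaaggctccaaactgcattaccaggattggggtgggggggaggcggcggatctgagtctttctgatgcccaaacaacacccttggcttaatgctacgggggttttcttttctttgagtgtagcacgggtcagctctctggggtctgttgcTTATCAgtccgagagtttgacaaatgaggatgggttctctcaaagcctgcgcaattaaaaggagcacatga
Rbpjl (chr2:164402944-164403243, plus strand): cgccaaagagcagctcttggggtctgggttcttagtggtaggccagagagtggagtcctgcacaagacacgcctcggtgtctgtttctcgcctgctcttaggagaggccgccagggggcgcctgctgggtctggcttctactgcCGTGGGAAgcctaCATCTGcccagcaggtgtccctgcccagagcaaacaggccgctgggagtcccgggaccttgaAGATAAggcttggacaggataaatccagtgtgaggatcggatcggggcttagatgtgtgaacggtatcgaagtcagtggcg
The Rbpjl sequence held CGTGGGAA before its start, which 0.762% of 27025 promoters held. The TTCCCAC match there is the same stretch read on the other strand, and 6.39% of all promoters held that shorter motif. The letters TGATAA stood in the Tdrd9 and Matn4 promoters and in 9.26% of all. None of the 7 promoters held TATAAA, which 14.2% of all promoters held, nor a match to the AP-1, STAT, ETS or CRE letters. The observed over expected ratio of CpG had a median of 0.458 over the 7 promoters, against 0.791 over 8087 promoters of genes that passed the filter, 0.607 over those of the other genes that met the size rule described next as higher in old cells, and 0.389 over all 27025. The promoter of Klrb1c was the poorest, at 0.07. The second entry of Matn4 had a ratio of 0.619, against 0.438 for the first, and held CAGCTG but not TGATAA. That of Tmem215 had a ratio of 0.427, against 0.459, and held CAGCTG but not CATCTG. A match is a string of letters, not a binding site.

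All 10 genes met the size rule used for all genes in the old against young comparison: a mean log2 difference of at least 1 over the tables, 0.58 or more in each, 20 CPM and a read in 20% of cells in the higher group, and no cell giving over 20% of the reads. Of all tested genes 1.54% met it as higher in old and 0.317% as lower, and the 10 were chosen from among the higher ones. Levels are summed reads of a group divided by its scaled total, and differences are on log2(CPM + 1). The young levels ran from 0.288 to 6.59 CPM. Of the 10721 genes 1.11% were at or under the highest of them, a share that the level filter itself kept small. The filter took the mean level over all groups and tables, so a gene that low in young cells could pass only through higher old levels. The median gene stood at 48.97 CPM in old and 48.63 CPM in young cells. Against young cells, 3 of the 10 met the rule in LO cells alone, 3 in MID cells and 3 in HI cells, where 1.26%, 0.961% and 1.17% of all genes met it as higher. In each case that missed, 1 cell gave more than 20% of the group's reads in a table. Among genes that met the rule, the 10 filled 10 of the 12 highest places by mean difference, with Osmr at 4.41 and Mt1 at 4.32 in the other places. Plscr2, at 3.92, was the last inside, and Il1rapl2 at 3.80, Wwtr1 at 3.80 and Tm4sf1 at 3.65 were the next outside.

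**Figure D1:**
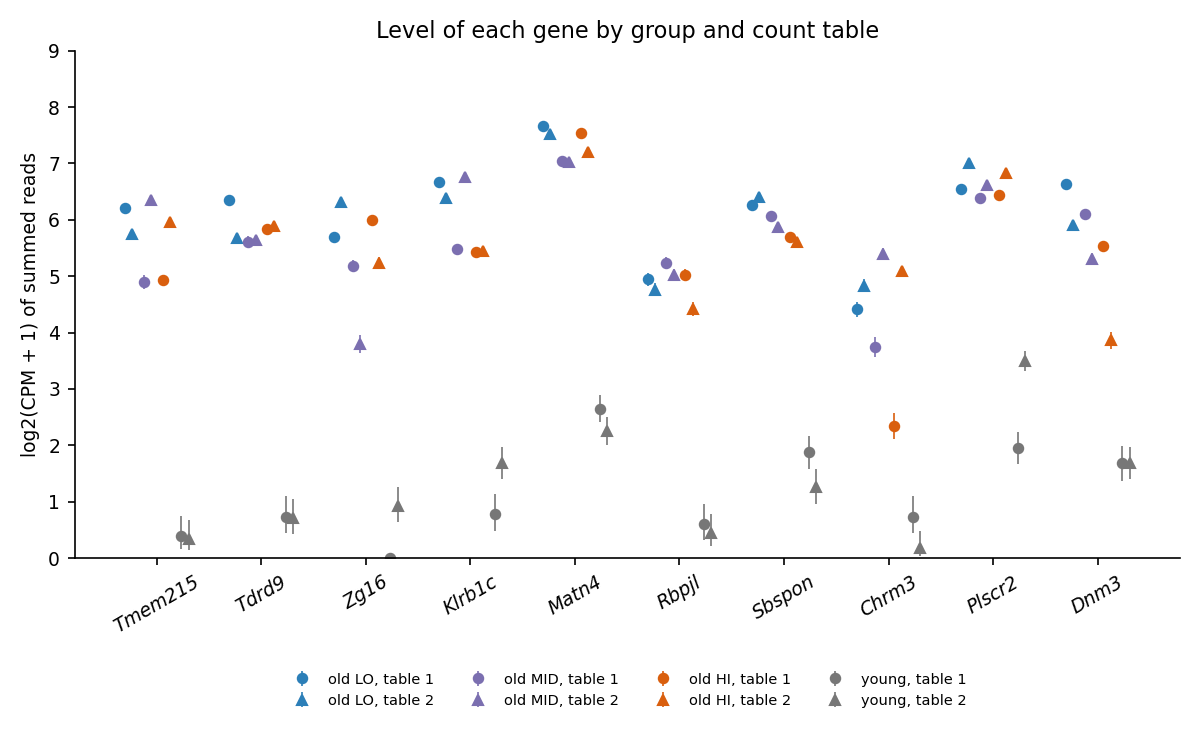
Level of each gene as log2(CPM + 1) of summed reads (y axis), by gene (x axis); colours stand for old LO, old MID, old HI and young cells, circles for the first table, triangles for the second, and bars for 95% Poisson intervals. In both tables every old group lies above the young group for each gene; the narrowest gap in the first table is for Chrm3 in HI cells, at 4.10 CPM against 0.666 CPM in young cells.

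The secreted and matrix proteins come first. Matn4, which codes for matrilin-4, an adaptor of the extracellular matrix, stood at 201, 130.9 and 184 CPM in LO, MID and HI cells of the first table and 182, 129.2 and 146 CPM in the second, against 5.27 and 3.77 CPM in young cells. Per kb of exon its level in old cells was 31.4 CPM, close to that of Plscr2 at 31.4 and below that of Zg16 at 36.8. A single young cell gave 39.8% of the young Matn4 reads in the first table, and another 60.7% in the second. Sbspon, a secreted protein with somatomedin B and thrombospondin repeats, was at 75.9, 66.3 and 50.8 CPM in LO, MID and HI cells of the first table and 83.7, 57.8 and 48.02 CPM in the second, against 2.66 and 1.39 CPM in young cells. Zg16, a lectin of zymogen granules and goblet cells, was at 51.1, 35.2 and 62.5 CPM in the first table and 78.6, 12.95 and 36.8 CPM in the second for LO, MID and HI. Young cells had no Zg16 read at all in the first table, where old cells averaged 49.6 CPM, at least 323-fold above the level that 3 reads over the group would give. The young cells of the second table had 20 reads, and 19 of them lay in 1 cell. Counting the absent reads as 3 gives a mean difference of 4.99 for Zg16 in place of 5.09, and leaves the median over the 10 genes at 4.67.

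The surface and membrane genes come next. Klrb1c stood at 101.4, 43.7 and 42.1 CPM in LO, MID and HI cells of the first table and 82.6, 107.4 and 42.6 CPM in the second, against 0.717 and 2.20 CPM in young cells. One young cell gave 39 of the 49 young reads in the second table. Chrm3, the muscarinic acetylcholine receptor that couples to Gq proteins, was at 20.3, 12.4 and 4.10 CPM in the first table and 27.5, 41.2 and 33.003 CPM in the second for LO, MID and HI, against 0.666 and 0.135 CPM in young cells. The tables disagree most over this gene, 2.99 against 4.94 on the log2 scale. Tmem215, a transmembrane protein, was at 73.2, 28.8 and 29.5 CPM in LO, MID and HI cells of the first table and 52.7, 80.9 and 61.002 CPM in the second, against 0.307 and 0.269 CPM, or 6 reads each, in young cells. Plscr2, a phospholipid scramblase, was at 92.9, 83.1 and 86.1 CPM in LO, MID and HI cells of the first table and 127.7, 96.9 and 113.3 CPM in the second, against 2.87 and 10.3 CPM in young cells. Plscr2 is the only one of the 10 whose fold between old and young moved by more than 1.5 times with 1 cell left out. Its log2 difference went from 3.92 to 4.62 without young cell 35, which held 47 of the 56 young reads in the first table. The fold of Klrb1c moved by 1.48 times without young cell 94.

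The other 3 genes act inside the cell. Tdrd9, an RNA helicase with a tudor domain that serves the piRNA pathway in germ cells, stood at 80.9, 47.95 and 56.2 CPM in LO, MID and HI cells of the first table and 50.5, 48.8 and 58.4 CPM in the second, against 0.666 and 0.628 CPM in young cells. Rbpjl, a partner of the pancreatic PTF1 complex related to the Notch effector Rbpj, was at 29.7, 36.6 and 31.7 CPM in the first table and 26.1, 31.4 and 20.4 CPM in the second for LO, MID and HI, against 0.512 and 0.359 CPM in young cells. MID cells had the highest level of the old groups in both tables. Dnm3, a dynamin, the class of GTPases that pinch off membrane vesicles, was lower in each step over the old groups in both tables, at 97.9, 67.5 and 45.3 CPM in LO, MID and HI cells of the first and 58.9, 38.7 and 13.5 CPM in the second, against 2.20 CPM in young cells of both tables. All 10 genes are protein coding. In GENCODE M21 on GRCm38, Matn4 spans chr2:164389393-164405160 on the minus strand and Rbpjl chr2:164403141-164415448 on the plus strand, an overlap of 2020 bases, while Tdrd9 overlaps Rd3l and Dnm3 overlaps Dnm3os and other antisense genes. The strand setting of the counting is not given in the sources used here, so reads of these pairs cannot be told apart fully.

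**Figure D2:**
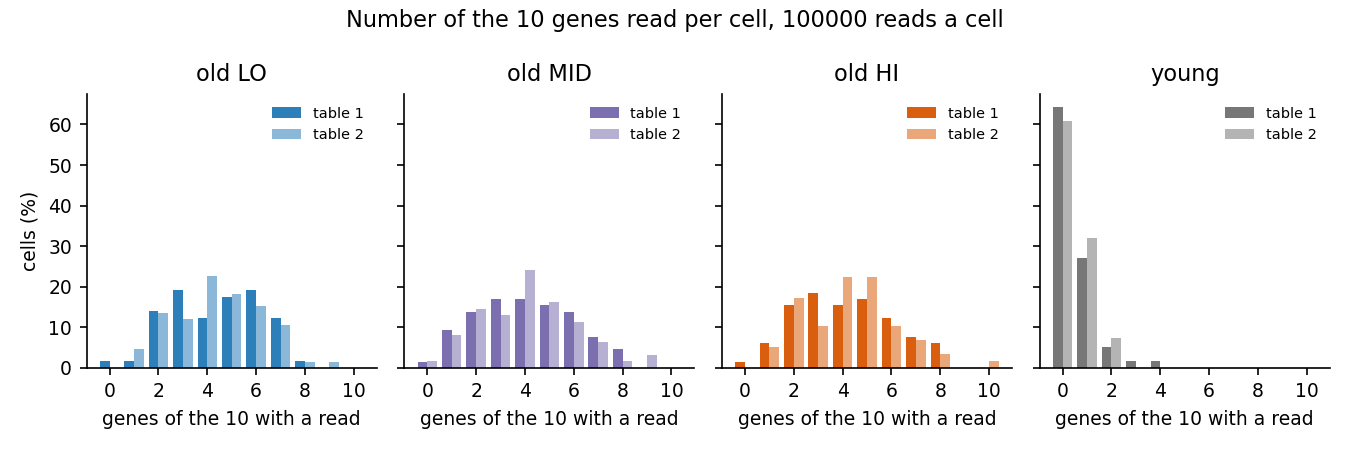
Share of cells in percent (y axis) by the number of the 10 genes with at least 1 read (x axis), each cell thinned to 100000 reads, in old LO, old MID, old HI and young cells, with 1 bar for each table. Old cells centre on 4 genes, while young cells stand mostly at 0.

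Cells were compared at equal depth by drawing 100000 nuclear gene reads from each, which kept 373 old cells and 59 and 69 young cells of the 2 tables. An LO cell read 4.41 of the 10 genes on average, an MID cell 4.07 and an HI cell 4.21, against 0.477 for a young cell. The means for the first table were 4.40, 4.06 and 4.15 in LO, MID and HI cells and 0.492 in young cells, and for the second 4.41, 4.08 and 4.28 and 0.464. At least 1 gene was read in 369 of 373 old cells (98.9%, 95% Clopper-Pearson interval 97.3 to 99.7%) and in 48 young cells (37.5%, 29.1 to 46.5%). At least 3 were read in 292 old cells (78.3%) and in 2 young cells (1.56%). At least 5 were read in 165 old cells (44.2%) and in no young cell. A count of 0 allows a young share of up to 2.34% by the limit of 3 counts, and the 95% Clopper-Pearson bound is 2.84%. By table, at least 1 gene was read in 98.4% and 99.5% of old cells and in 35.6% and 39.1% of young cells, and at least 3 in 78.1% and 78.5% of old cells and in 3.39% and 0% of young cells. Over all kept cells before thinning, no young cell reached the median old cell in summed level of the 10 genes. That median was 507 CPM, and the highest young cell had 330 CPM.

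The reads left in young cells were few, and most of them lay in few cells. Of the young cells 58 had no read of the 10 genes, and the rest held 804 between them, and the 10 cells with most of them gave 65.4%. In old cells the 10 highest cells gave 12.5% of 84439 reads. Young cell 22 read 4 of the genes, with 39 Matn4, 18 Dnm3, 9 Sbspon and 4 Rbpjl reads. After thinning it also read 9 of the 10 genes of a list of known old HSC genes. Over all thinned cells that number had a median of 8 in old cells, with a range from 4 to 10, and a median of 4 in young cells, with a range from 1 to 9. Other young cells with reads of the genes were not alike in this. Young cell 67, which read 4 of the genes before thinning and 2 after, read 2 of the list, and young cell 80 read 1. Young cell 50 read the most genes of any young cell before thinning, 6 with 20 reads between them. After thinning it read 3 of the genes and 6 of the list. Young cell 92 held 90 Plscr2 reads and 2 reads of the other genes.

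**Figure D3:**
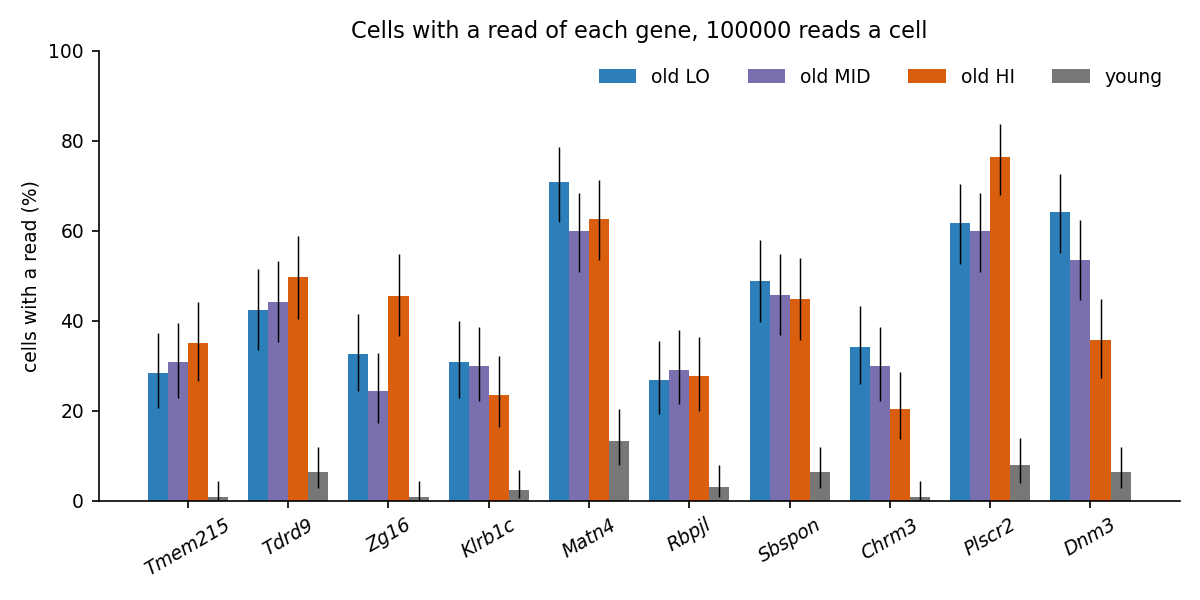
Share of cells with a read of each gene in percent (y axis), by gene (x axis), in old LO, old MID, old HI and young cells thinned to 100000 reads, with 95% Clopper-Pearson intervals as bars. For Dnm3 the share is lower in each step over LO, MID and HI, and for Plscr2 it is highest in HI.

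The genes differed in how many old cells read them. At equal depth Plscr2 was read in 65.95% and Matn4 in 64.3% of old cells, against 7.81% and 13.3% of young cells. In the first and second tables Plscr2 was read in 62.6% and 69.4% of old cells, against 5.08% and 10.1% of young cells. Dnm3 followed with 51.2% against 6.25%, and Sbspon with 46.4% against 6.25%. Rbpjl, in 27.9% of old cells against 3.13% of young ones, stood at the low end with Klrb1c and Chrm3, each in 28.2% of old cells, a gap of 1 cell. In the first table alone Chrm3 was lowest, at 21.4%. None of the genes was read in all old cells, and 48 old cells (12.9%) read 7 or more.

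Across the old groups, Dnm3 alone met the size rule as lower in HI than LO cells, where 0.382% of all genes did, and none met it as higher, where 1.59% did. Its difference was -1.57, with -1.10 and -2.04 in the tables, and it was read in 35.8% of HI cells (27.3 to 44.9%) against 64.2% of LO cells (55.1 to 72.7%). All 10 means were lower in HI than in LO cells, with a median of -0.47, against 0.02 for all genes, but only 5 were lower in both tables. Of all genes 28.7% were lower in both. Klrb1c was at -1.09, Sbspon at -0.68 and Plscr2 at -0.14. The shares of cells did not follow every level: Plscr2 was read in 76.4% of HI cells against 61.8% of LO cells, and Zg16 in 45.5% against 32.5%. Between MID and LO cells none of the 10 met the rule, which 0.0839% of all genes met as higher and 0.0373% as lower, and Zg16 showed the widest difference at -1.52. None met it between HI and MID cells, where 1.03% of all genes were higher and 0.196% lower.

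Division genes were higher in HI than in LO cells, and young cells were also above LO cells. The summed level of 30 G2 and M phase genes was 2147 and 5721 CPM in HI cells of the 2 tables, against 903 and 730 CPM in LO cells. In young cells it was 1831 and 2602 CPM. Of the thinned HI cells 42 read 8 or more of them, against 5 LO cells and 19 young cells. The HI cells so marked read Dnm3 in 19.05% and Plscr2 in 80.95%, and the other 81 HI cells read them in 44.4% and 74.1%. Without all such cells 8 of the 10 genes were lower in HI than LO, with Dnm3 at -1.07, and Tdrd9 at 0.22 and Rbpjl at 0.14 stood above. Whether division has a part in the differences was not tested.

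**Figure D4:**
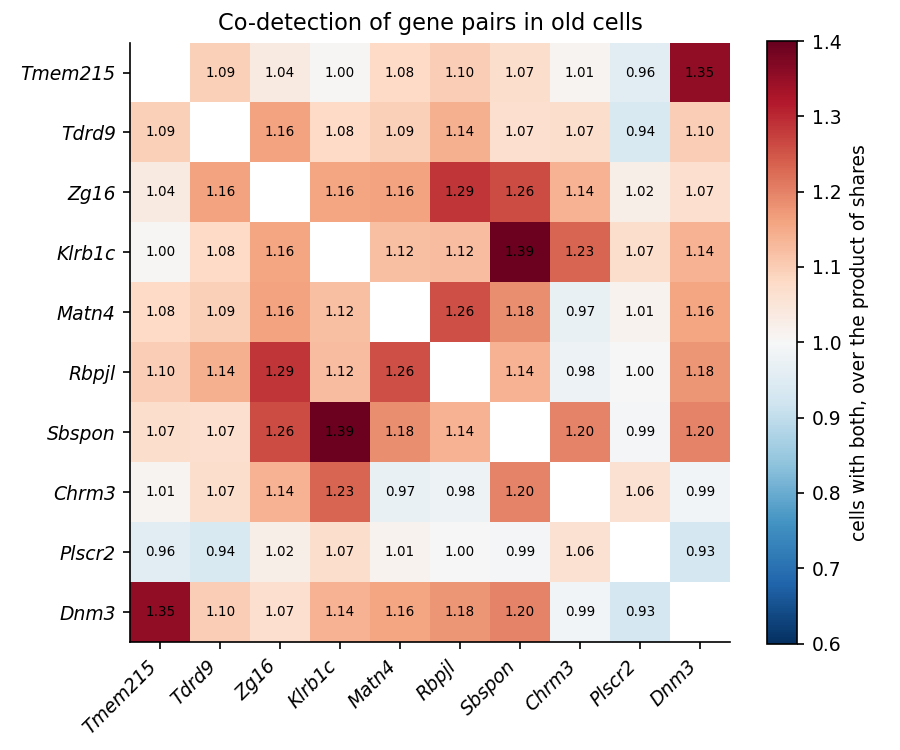
Co-detection of each pair of the 10 genes in 373 old cells thinned to 100000 reads; each cell of the map gives the number of old cells with both genes divided by the number that the shares in each group and table would give, on a colour scale centred at 1. Klrb1c with Sbspon is highest at 1.39, and Plscr2 with Dnm3 lowest at 0.930.

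The genes were also compared pair by pair and by how many of them each old cell read. The count of genes per old cell had a variance of 3.68, against 2.19 for genes that keep their shares in each group and table and are spread without regard to each other. Those shares alone would give 23.5 cells with 7 or more genes, and 48 were seen. They would give 1.03 cells with none, and 4 were seen. No such variance or cell numbers were worked out for other sets of genes. Most of all gene pairs compared below were also found together in more cells than their shares give. Whether the wider spread of the count is particular to the genes described here was thus not tested. Of the 45 pairs 37 (82.2%) were found together in more cells than the shares give, 29 of them in both tables (64.4%). Over all 18638565 pairs of 6106 genes read in 5 to 60% of old cells, 62.96% were found together in more cells than the shares give, 36.2% in both tables. The median ratio was 1.09 for the 45 pairs, against 1.03 for all gene pairs. Plscr2 and Matn4 were read in too many old cells to fall in that range, and of the 28 pairs of the other 8 genes 26 (92.9%) lay above 1, 21 of them (75%) in both tables, with a median ratio of 1.13. Klrb1c and Sbspon were read together in 68 old cells where their shares give 48.9, Tmem215 and Dnm3 in 80 against 59.1, and Matn4 and Rbpjl in 84 against 66.8. Plscr2 stood apart: the 246 old cells with it read 3.53 of the other 9 genes on average, and those without it 3.64. For Matn4 the same means were 3.99 and 2.86. The points share libraries and depth, and the count of genes had a correlation of 0.15 with log2 reads per cell (0.24 and 0.06 in the tables), although every cell was thinned to the same number.

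Among all other genes the ones most like the count of the 10 genes over old cells were Clu and Vwf. Their Pearson correlations with the count, averaged over the tables of 187 and 186 cells, were 0.42 each. Cldn5 (0.34), Mycn (0.34) and Itgb3 (0.33) followed, then Gda, Jam2, Sord, Ramp2 and Gm6665 at 0.28 to 0.32. The middle 95% of the 10711 other genes lay between -0.11 and 0.15. The number of listed known old HSC genes read correlated with the count at 0.30 (0.32 and 0.28 in the tables), and the number of HSC markers at 0.28 (0.26 and 0.30). Clu, Vwf and Itgb3 are themselves on the list of known old HSC genes. For multipotent progenitor markers the value was -0.15 (-0.06 and -0.23), for the number of genes read after thinning 0.19 (0.25 and 0.13), and for spike-in reads per nuclear read -0.16 (-0.26 and -0.07). S100a10 was least like the count, at -0.26. H2-Eb1, which was higher in old cells by 2.67, was also among the genes least like it, at -0.20.

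Klrb1c reads were checked against markers of natural killer cells, over all kept old cells before thinning. Depth was thus not made equal, and a deeper cell is likelier to hold a read of any gene. The marker Ncr1 and the receptor Klra8 were read in none of the 140 old cells with a Klrb1c read and in none of the 259 others. Klrd1 and Cd7 were read in 0 of the Klrb1c cells and in 2 of the others each, Gzma in 1 and 0, Gzmb in 1 and 2, Prf1 in 2 and 0, Klrk1 in 2 and 3, and Klre1 in 2 and 2. The transcription factors Eomes and Tbx21 were read in 4 and 9 of the Klrb1c cells and in 11 and 19 of the others. Nkg7 was read in 44.3% of the Klrb1c cells and in 38.2% of the others. Of the 12 listed natural killer genes 1 passed the level filter, and the list summed to between 22.7 and 59.8 CPM in the old groups and to 38.04 and 20.1 CPM in the young. Procr, an HSC surface marker, was read in 86.4% of the Klrb1c cells and in 76.4% of the other old cells.

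**Figure D5:**
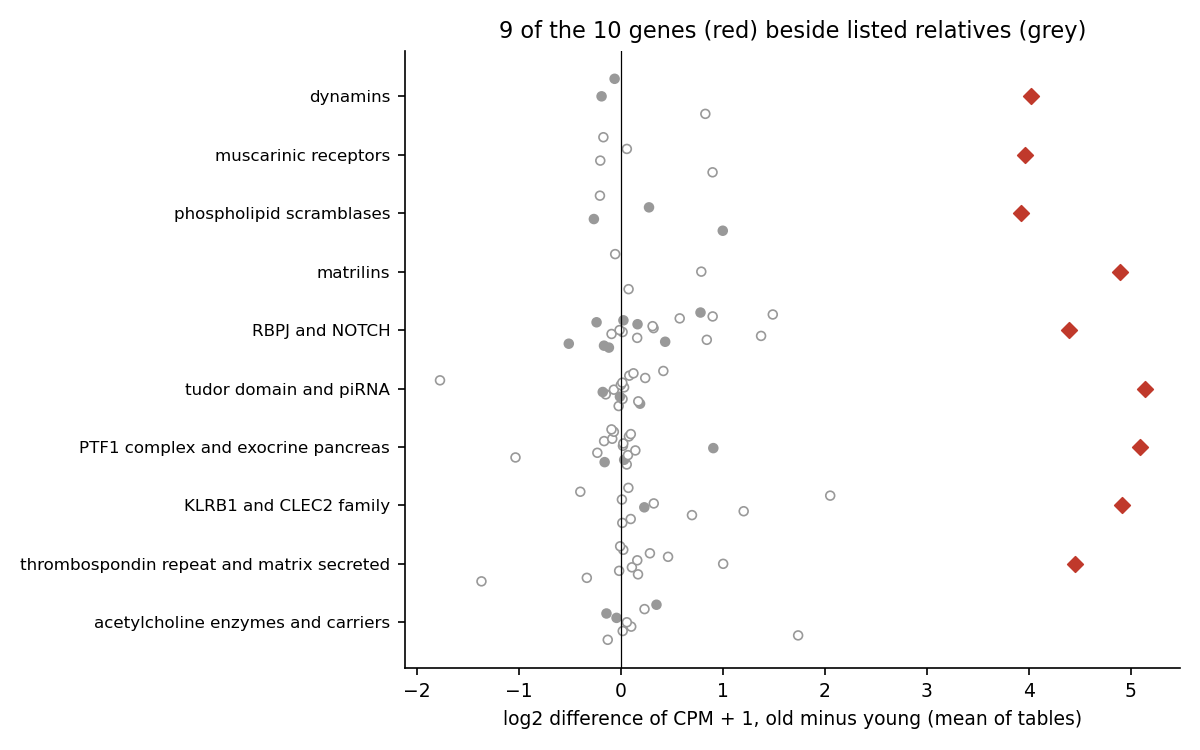
Difference of log2(CPM + 1), old minus young and averaged over the tables (x axis), for 9 of the 10 genes (red diamonds) and the listed relatives of each (grey circles, filled where a gene passed the level filter), by list (y axis). Tmem215 has no list. The red points lie at 3.92 and above, and the highest filled grey point is Plscr1 at 0.998.

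Few of the relatives of the genes were read enough to be compared. Of 95 listed family and pathway genes 23 passed the level filter, 0 of them met the size rule as higher and 0 as lower, and their median difference was -0.01; of all genes 1.54% met it as higher. The others were too low for the rule, and some of them differed: Clec2f, a lectin of the family that Klrb1 receptors bind, was at 3.19 CPM in old cells and had no read in young ones. Ache, the enzyme that breaks down acetylcholine, was at 9.87 CPM in old and 2.13 CPM in young cells, and Ddx4, a germ cell helicase, at 0.999 CPM in old and 6.06 CPM in young cells. The scramblase Plscr1 was at 113.6 CPM in old and 56.6 CPM in young cells, a difference of 0.998. Another scramblase, Plscr3, was at -0.27. Per kb of exon, Dnm2 stood at 35.3 CPM in old and 41.1 CPM in young cells, where Dnm3 stood at 2.19 and 0.09. Rbpj itself was at 19.1 CPM in old and 20.8 CPM in young cells. Piwil1, of the Piwi family that binds piRNAs in germ cells, was at 0.319 CPM in old and 0.384 CPM in young cells.

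Of 36 flanking protein coding genes 22 passed the filter, and their median difference was 0.07. The rule was met as higher by 1 of them, as by 1.54% of all genes. It was Sdc4, 8799 bases from Rbpjl, at 24.7 CPM in old and 11.3 CPM in young cells. Among genes too low to be tested, Kcnb2 near Sbspon had 1365 old and 5 young reads, Slpi, 298 bases from Matn4, had 494 old and 1 young, and Dnm3os within Dnm3 had 1554 old and 46 young.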

How the data were processed

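Each sample is 1 cell, and the authors deposited raw counts of reads per gene in 2 tables of 283 and 280 cells. The submitters' processing notes name STAR 2.7.3a, Subread, featureCounts 2.0.0, DESeq2 and mm10. What each was used for, the annotation and the strand setting are not given in the sources used here. The counts carry no molecular identifiers. Genes were matched to GENCODE M21 (GRCm38).

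The 10 genes and all gene lists were chosen with earlier results of these data known. Cells with at least 50000 nuclear gene reads, 1000 genes and at most 20% mitochondrial reads were kept, which left out 30 of 563 and kept 136 LO, 134 MID, 129 HI and 134 young cells. Counts were summed by group and table and scaled with TMM factors (edgeR 4.0.16, R 4.3.3). Differences used a pseudocount of 1 CPM and the mean of both tables, and the old level averages the 3 old groups. Per-cell shares used 100000 reads drawn from each cell unless stated, and 32 kept cells were too shallow. The comparison of Klrb1c with natural killer markers used all kept old cells before thinning. Scripts ran in Python 3.11.15 with NumPy 2.4.6, pandas 2.3.3 and SciPy 1.17.1, and were tested on simulated data. Doublets were not called, since cells were sorted singly. The text names the 10 genes, their overlapping and nearest genes, listed relatives and markers, the genes most and least like the per-cell count, and those next in rank. Any that fall outside these were chosen after their values were seen.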

Additional observations from a re-analysis of the deposited data

How the results depend on the processing

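No paired analysis was possible because the numbers in the labels only name cells and no result comes from a test. The difference between old and young cells was positive in all 120 values from other settings, from 1.59 (pseudocount 10 CPM) to 7.19 (pseudocount 0.1 CPM). The genes were chosen for a large difference in these same cells, so the sign lends no support. Of the 120 values 37 lay outside the Poisson interval of the main value. Under the stricter filter of 50 CPM and 25% of cells, 3 of the 10 genes met the size rule, and 9 did in the first table alone and 8 without cells with markers of another blood cell type. Of all tested genes 165 (1.54%) were higher in old, against 0.970% with a pseudocount of 10 CPM, and 66 genes with the stricter filter, 265 in the first table alone and 293 in the second. Leaving out cells with division genes turned the sign of HI against LO for Tdrd9 (0.22) and Rbpjl (0.14), and the cause was not tested.

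The shares of cells moved with depth and with the reads a gene needed. The share of old cells with at least 3 genes was 72.9% at 50000 reads, 86.9% at 200000 and 86.7% without thinning, and 56.3% and 10.5% when a gene needed 5 or 20 reads. The share of young cells with at least 1 gene was 24.6%, 49.5%, 56.7%, 12.5% and 1.56% in the same order. That with at least 3 was 5.71% at 200000 reads, 9.70% without thinning, and 0% with 20 reads needed or in the second table alone. The number of pairs found together more often than their shares give stayed between 32 and 40 of 45, where 62.96% of all gene pairs were so at the depth used. The log2 difference of Plscr2 moved to 4.62 without 1 young cell, and the fold of no other gene moved by 1.5 times. With 1 sample a group, nothing here measures the spread between animals.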
